A study of Mus musculus with 4 samples.

Results

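The conjugating enzymes of the liver are described here as 36 genes of 3 families, out of 32285 gene symbols in the deposited matrices: 13 UDP-glucuronosyltransferases (UGT), 17 glutathione S-transferases (GST) and 6 sulfotransferases (SULT). They were taken from a list of gene symbols, chosen with earlier results of these data known, and all 36 were found. Their RNA was read in hepatocyte nuclei by feeding state and by position in the lobule, the unit of liver that runs from the portal vein to the central vein.

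Conjugation is the second phase of drug and hormone metabolism. UGTs attach glucuronic acid to bilirubin, steroids and drugs, GSTs attach glutathione to reactive electrophiles, and SULTs transfer sulfate to phenols, steroids and bile acids. The products are more soluble and leave the hepatocyte through export pumps, into bile or blood. Oxidising enzymes are known to be concentrated around the central vein, where oxygen is low and Wnt signalling is high, and sulfation has been described as more periportal than glucuronidation.

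The study compared livers of mice fasted for 16 to 24 h with livers of fed control mice, in 2 preparations of nuclei per group. Each preparation came from frozen liver (50 mg) pooled over 8 mice, so values are averages over animals and the spread within a group is between preparations, which may be technical. No group carried a genetic change in the labels. Strain, sex, age and time of day are not given in the sources used here, and it is not stated whether the preparations of a group shared mice. Nuclear RNA was counted as unique molecular identifiers (UMIs, 1 per captured transcript), and it measures neither cytoplasmic RNA nor protein.

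The libraries are named fasted 1, fasted 2, fed 1 and fed 2, and values are given in that order throughout. They held 30955600, 24139311, 22924339 and 8078755 UMIs. Between 12 and 42 cell barcodes were shared by a pair of libraries, at most 0.431% of the smaller. Of 29724 nuclei kept, 18737 in 10 clusters were named hepatocytes from a list of markers that included Alb and Apob. In 8 of those clusters most nuclei came from 1 library: clusters 3 and 5 were mostly fasted 1, 4 and 9 fasted 2, 2, 8 and 13 fed 1, and 1 fed 2. Fed 2 was shallow, with a median of 1273.5 UMIs per hepatocyte nucleus against 2924, 3238 and 2547, and Gm42418, which collects ribosomal RNA reads, stood at 42248 CPM there against 2130, 8912 and 3514 (CPM is the share of the summed counts of a library, scaled to a common total). Of 4146 nuclei kept from fed 2, 3734 were named hepatocytes. The endothelial gene Stab2 read 24.4 CPM in them, against 10.8, 2.56 and 9.10 in the hepatocytes of the other libraries. The cholangiocyte gene Sox9 read 12.8 CPM against 3.71, 3.86 and 3.93. The part of other cell types in the fed 2 values was not tested. In fed 1, cluster 8 was led by acute-phase genes, and Saa1 stood at 388 CPM against 12.2, 0.887 and 1.51. The fasting response gene Cyp4a14 matched the labels, with 914 and 889 CPM after fasting against 4.58 and 6.93 CPM in fed livers. As a description of sex, Xist, expressed in females, read 0.904, 0.782, 0.297 and 0.301 CPM. The Y-linked genes Ddx3y, Uty, Eif2s3y and Kdm5d lay between 45.6 and 418 CPM in every library.

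The promoters of 5 members are shown. Sult5a1 had the steepest position difference of the members, Ugt1a9 and Ugt1a1 share a locus but were fitted on opposite sides of the lobule, and Gsta3 and Sult2a8 are pericentral examples of their families, chosen after their motif matches were seen. RefSeq (GRCm38.p6) gave 43 promoters for 33 of the 36 members, each from 250 bases before to 50 after a gene start. Both strands were searched for 4 motifs: TTGCNNAA (bound by C/EBP factors), GTTAAT, any base and ATT (HNF1), TGACNNNGC (the antioxidant response element) and CTTTGAT (TCF, the Wnt effector). Capitals mark each match, and positions below are those of the first matched base relative to the start. Sult5a1 (chr8:123158231-123158530, minus strand) held no match. Ugt1a9 (chr1:88070529-88070828, plus strand) and Ugt1a1 (chr1:88211709-88212008, plus strand) each held an HNF1 match, at -95 and -45. Gsta3 (chr1:21240335-21240634, plus strand) held a C/EBP match at -137 and an antioxidant element match at -121. The upstream promoter of Sult2a8 (chr7:14446538-14446837, minus strand) held a C/EBP match at -217 and a TCF match at -203.
Sult5a1: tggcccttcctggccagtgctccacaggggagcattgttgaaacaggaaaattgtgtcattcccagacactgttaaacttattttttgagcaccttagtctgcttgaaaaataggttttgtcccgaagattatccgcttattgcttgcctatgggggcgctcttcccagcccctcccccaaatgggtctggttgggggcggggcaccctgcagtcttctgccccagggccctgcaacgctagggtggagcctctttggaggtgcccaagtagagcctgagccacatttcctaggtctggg
Ugt1a9: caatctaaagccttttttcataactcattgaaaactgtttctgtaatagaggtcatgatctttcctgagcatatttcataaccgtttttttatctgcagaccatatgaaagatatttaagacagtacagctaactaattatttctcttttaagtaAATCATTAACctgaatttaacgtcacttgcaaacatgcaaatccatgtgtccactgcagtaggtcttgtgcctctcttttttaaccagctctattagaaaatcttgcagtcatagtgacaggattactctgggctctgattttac
Ugt1a1: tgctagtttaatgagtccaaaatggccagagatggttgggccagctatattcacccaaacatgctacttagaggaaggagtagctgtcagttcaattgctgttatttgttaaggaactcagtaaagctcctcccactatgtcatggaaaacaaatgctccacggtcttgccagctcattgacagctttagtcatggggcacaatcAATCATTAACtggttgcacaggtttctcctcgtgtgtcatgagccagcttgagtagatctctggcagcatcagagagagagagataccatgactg
Gsta3: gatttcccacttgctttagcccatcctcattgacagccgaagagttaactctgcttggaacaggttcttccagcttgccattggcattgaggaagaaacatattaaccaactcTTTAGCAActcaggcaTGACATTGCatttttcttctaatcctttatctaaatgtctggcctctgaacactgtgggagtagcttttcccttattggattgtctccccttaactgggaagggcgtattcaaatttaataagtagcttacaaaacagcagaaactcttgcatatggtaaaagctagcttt
Sult2a8: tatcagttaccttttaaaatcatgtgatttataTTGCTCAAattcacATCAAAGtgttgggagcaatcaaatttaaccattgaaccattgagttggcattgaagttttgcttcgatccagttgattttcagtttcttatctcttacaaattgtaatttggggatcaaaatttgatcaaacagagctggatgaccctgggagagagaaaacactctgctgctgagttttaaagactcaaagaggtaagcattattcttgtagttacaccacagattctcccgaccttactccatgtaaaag
The HNF1 motif lay in 3 of the 43 member promoters (6.98%: Ugt1a9, Ugt1a1 and Sult1d1), against 0.399% of all 32851 promoters in the table. The C/EBP motif lay in 10 (23.3%) against 10.8%. These were Ugt2b1, Ugt2b36, Ugt2b5, Ugt2a3, Gsta3, Gstm2, Gstt1, Mgst1, Sult1c2 and Sult2a8. The antioxidant element motif lay in 3 (6.98%: Gsta3, Gstm7 and Mgst1) against 12.4%, and the TCF motif in 1 (2.33%: Sult2a8) against 3.73%. These are matches of letters in a window, with no measurement of binding.

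Most members that could be tested had more RNA near the central vein, in every family, and 3 members had more near the portal vein. Nuclei were ranked within each library by a score from 17 landmark genes, none of them a member, and the lowest and highest of 3 equal bins are called periportal and pericentral. Differences are log2 fold changes of pericentral minus periportal, with the library as a block, from the quasi-likelihood F test of edgeR with Benjamini-Hochberg adjustment over all genes and a threshold of 0.05. Of 29 members tested, 17 were higher in the pericentral bin, where the background over all genes was 8.45%. In the periportal bin 3 were higher, where it was 8.67%. The members were chosen with earlier results of these data known, so this contrast describes the list only. The median over the 29 members was 0.37, against -0.01 over all 11391 genes tested. In the pericentral bin 15 members were higher in all 4 libraries (15.7% of all genes), and in the periportal bin 3 were (17.6%). DESeq2 called 16 members, all among the 20 of edgeR, against 12.1% of all genes. The members it did not call were Ugt1a1, Ugt1a6a, Gsta2 and Sult1b1.

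**Figure D1:**
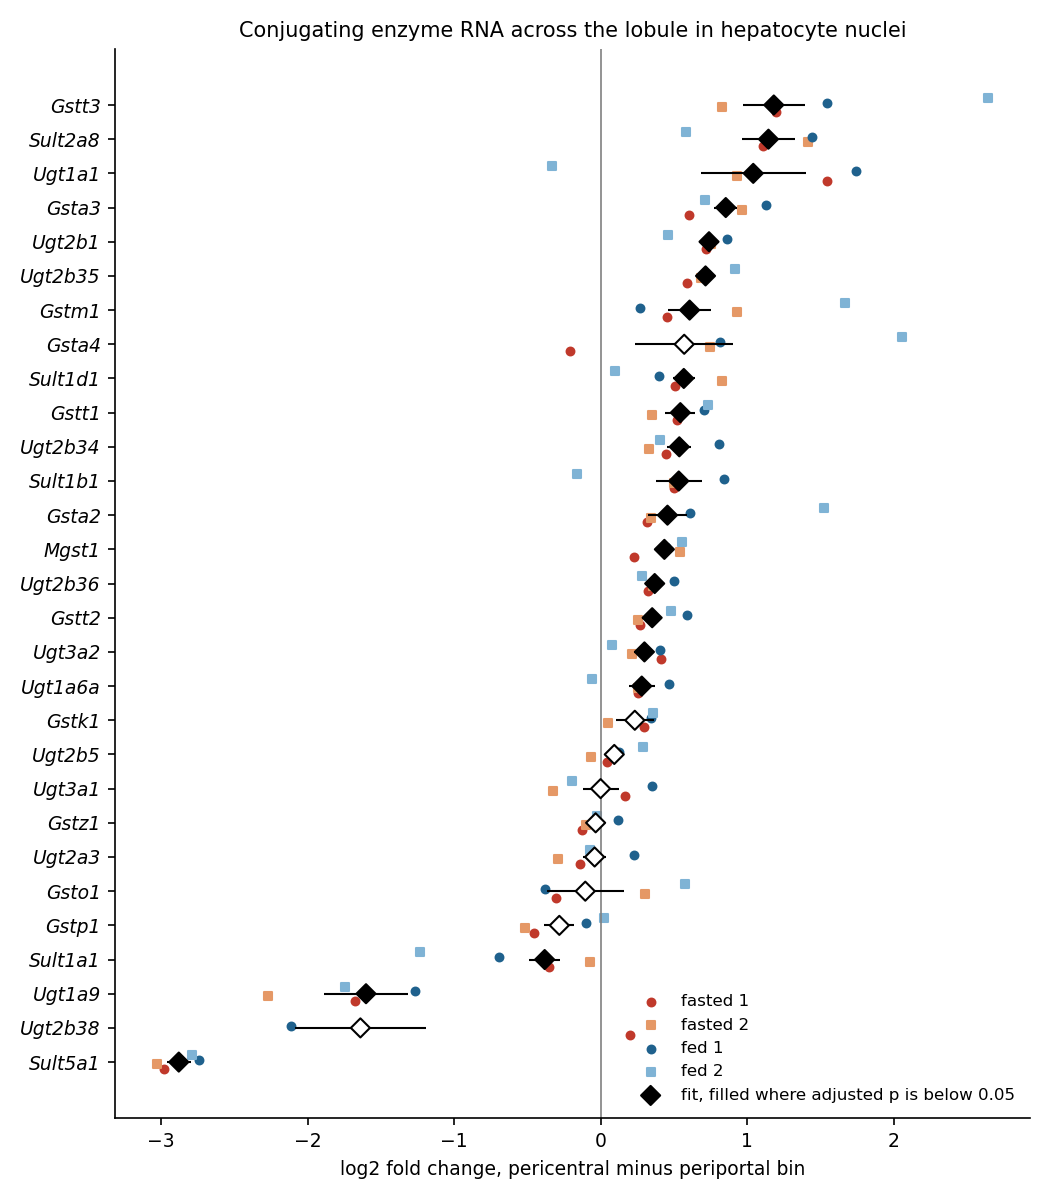
Position difference of the 29 members tested, as log2 fold change of the pericentral minus the periportal bin (x axis). Diamonds are the edgeR fit with bars of 1 SE, filled where the adjusted p was below 0.05, and small points are the CPM ratios of the single libraries, not drawn where a bin held 0 counts. Sult5a1 lies farthest to the left, with its 4 libraries close together at -2.88 in the fit, and 17 filled diamonds lie to the right of 0.

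Nuclei of the pericentral bin were also deeper in every library, with median UMIs of 3451, 3744, 3294 and 2535 against 2816, 3086, 2529.5 and 2200 in the periportal bin. With every nucleus thinned to 1500 UMIs, an alternative chosen after seeing the data, 16 of 25 members tested were called, all among the 20. Over all genes, 1483 of 9755 were called in that setting. Without a term that ties the bins of a library together, only Sult5a1 was called. Calls over all 11391 genes then fell from 1950 to 95.

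Among the UGT2 enzymes, which glucuronidate steroids, bile acids and drugs, 4 of 7 tested were higher in the pericentral bin (Ugt2b1, Ugt2b34, Ugt2b35 and Ugt2b36). All 8 UGT2 genes lie in a run on chromosome 5, from Ugt2b34 (start 86889767) to Ugt2b38 (end 87424203, GRCm38). Ugt2b1 stood at 105, 50.5, 332 and 112 CPM in the periportal bin and at 173, 85.0, 603 and 154 CPM in the pericentral bin. Every library was thus higher pericentrally, although the levels of the libraries themselves differed more than the bins did, and the fitted difference was 0.74 (SE 0.07, adjusted p = 3.98e-08). Ugt2b35 read 107, 58.5, 164 and 109 CPM periportally and 162, 93.9, 271 and 206 CPM pericentrally. Its difference was 0.72 (SE 0.06, adjusted p = 3.04e-08), with all 4 libraries on the same side.

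Smaller pericentral differences were found for the other pair. Ugt2b34 read 76.8, 38.0, 111 and 117 CPM against 105, 47.8, 194 and 155 CPM, a difference of 0.54 (SE 0.08, adjusted p = 7.37e-05). Ugt2b36 read 522, 296, 477 and 744 CPM against 652, 379.8, 675 and 902 CPM, a difference of 0.37 (SE 0.06, adjusted p = 9.55e-05). Both were higher pericentrally in all 4 libraries. The neighbours Ugt2b5 (0.09, SE 0.06) and Ugt2a3 (-0.04, SE 0.08) did not pass the test, so the locus held members with and without a position call. Ugt2b38 stood apart, at -1.64 (SE 0.45, adjusted p = 0.0601), and it passed in 5 of the 10 alternative settings run for it. The difference came from fed 1, where Ugt2b38 read 61.3 CPM in the periportal and 14.2 CPM in the pericentral bin. The remaining libraries held at most 17 counts of it in either bin. Ugt2b37 had too few counts for the position test.

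The UGT1 members are spliced from separate first exons onto shared last exons of 1 locus on chromosome 1 (end 88218997), and the fit placed Ugt1a9 on the periportal side and Ugt1a1 and Ugt1a6a on the pericentral side. Ugt1a9, which glucuronidates phenolic drugs, read 9.07, 4.30, 9.66 and 2.18 CPM in the periportal bin and 2.84, 0.890, 4.01 and 0.649 CPM in the pericentral bin. All 4 libraries were lower pericentrally, with a difference of -1.60 (SE 0.29, adjusted p = 0.000254), a 3.04-fold lower level. Its counts were small, 50, 23, 43 and 3 against 21, 6, 24 and 1. Ugt1a1, the enzyme that glucuronidates bilirubin, read 2.00, 1.87, 0.899 and 6.54 CPM periportally and 5.81, 3.56, 3.004 and 5.19 CPM pericentrally.

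Thus 3 libraries were higher for Ugt1a1 in the pericentral bin and fed 2 was not. The fit gave 1.04 (SE 0.36, adjusted p = 0.049), and the call was lost without fasted 1 (adjusted p = 0.392), fasted 2 (0.12) or fed 1 (0.168). It was also lost in DESeq2 (0.21), with another scaling (0.052) and with odd-numbered landmarks (0.0774). Ugt1a6a, a phenol-conjugating enzyme, read 68.1, 43.8, 42.5 and 49.4 CPM against 81.4, 52.2, 58.6 and 47.4 CPM. It was higher pericentrally in all libraries but fed 2, by 0.28 (SE 0.09, adjusted p = 0.0345). That call too was lost without fasted 1, fasted 2 or fed 1, and in DESeq2 (adjusted p = 0.238), with the outer bins of 5 and with even-numbered landmarks. In the last 500 bases of the annotated transcripts, 100% of 50-base windows of all 3 genes also occur in other Ugt1a genes. The sources used here do not say how reads were shared out among these genes, so their values are uncertain.

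The UGT3 enzymes use other sugars than glucuronic acid. Ugt3a2 read 142, 134, 82.0 and 139.6 CPM periportally and 188, 155, 108 and 147 CPM pericentrally. All 4 libraries were higher pericentrally, fed 2 by the smallest step, and the difference was 0.30 (SE 0.07, adjusted p = 0.00308); the call was lost without fasted 1. Ugt3a1 showed a fitted difference of 0.00 (SE 0.12) and did not pass.

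Of the 12 GST members tested, 7 were higher in the pericentral bin and none was called in the other direction. Gsta3, an alpha-class enzyme known in mice for clearing aflatoxin epoxide, read 1132, 979, 779 and 1539 CPM periportally. In the pericentral bin it read 1719, 1909.9, 1705 and 2517 CPM. Even the lowest pericentral value lay above the highest periportal one, and the difference was 0.85 (SE 0.08, adjusted p = 8.18e-07), a 1.81-fold higher level. Gsta2 read 31.8, 21.5, 8.09 and 6.54 CPM against 39.6, 27.3, 12.3 and 18.8 CPM. It was higher pericentrally in all 4 libraries by 0.46 (SE 0.14, adjusted p = 0.0218), a call that was lost without fasted 1 or fed 1, in DESeq2 (adjusted p = 0.0814) and with even-numbered landmarks. Of its transcript-end windows 62.1% are shared with Gsta1 and related genes, so its value is uncertain. Gsta4, which conjugates the lipid aldehyde hydroxynonenal, had a difference of 0.57 (SE 0.34) that did not pass.

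All 3 theta-class enzymes, Gstt1, Gstt2 and Gstt3, neighbours on chromosome 10, were higher in the pericentral bin. Gstt3 read 7.44, 5.61, 2.70 and 0.727 CPM periportally and 17.0, 9.94, 7.84 and 4.55 CPM pericentrally. It was higher in all 4 libraries, by 1.18 (SE 0.21, adjusted p = 0.000275), a 2.27-fold higher level. The value of fed 2 rested on 1 and 7 counts, and 26.8% of the transcript-end windows of Gstt3 also occur in unrelated genes. Gstt1 read 35.9, 32.0, 18.4 and 41.4 CPM against 51.5, 40.8, 30.04 and 68.8 CPM, again higher in each library, by 0.54 (SE 0.10, adjusted p = 0.000407). Gstt2 read 176, 204, 33.0 and 89.4 CPM against 212, 243, 49.6 and 125 CPM. Its difference was 0.35 (SE 0.07, adjusted p = 0.000803), with all 4 libraries higher, and it did not pass when nuclei were thinned to 1500 UMIs.

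The membrane-bound enzyme Mgst1 read 433, 198, 320.3 and 275 CPM periportally and 506, 289, 436 and 404 CPM pericentrally. All 4 libraries were higher pericentrally, by 0.43 (SE 0.06, adjusted p = 2.08e-05). Gstm1, the mu-class member with enough counts for the test, read 28.5, 9.72, 17.3 and 6.54 CPM against 39.1, 18.5, 20.9 and 20.8 CPM. Its difference was 0.61 (SE 0.15, adjusted p = 0.0045), with 4 of 4 libraries higher, and 23.0% of its transcript-end windows are shared with Gstm3 or pseudogenes. Gstm2, Gstm3, Gstm4, Gstm6 and Gstm7 were at or below 3.11 CPM in every bin and were not tested.

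Several GST members did not pass the position test. Gstz1, which acts as maleylacetoacetate isomerase in tyrosine breakdown, differed by -0.03 (SE 0.06), Gsto1 by -0.11 (SE 0.26) and Gstk1 by 0.23 (SE 0.13). Gstp1, the pi-class enzyme, read 31.6, 57.6, 33.9 and 113 CPM periportally and 23.0, 40.2, 31.7 and 114 CPM pericentrally, lower in 3 libraries. Its difference was -0.28 (SE 0.10, adjusted p = 0.0636). It passed without fed 1 (-0.35) or without fed 2 (-0.36), and in 6 of 14 alternative settings in all. The others were 2 bins in place of 3, the outer bins of 5, even-numbered landmarks and stored zeros counted as 1. Of its transcript-end windows 78.0% are shared with Gstp2 and a pseudogene.

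The sulfotransferases were split, with 3 of 5 tested higher pericentrally and 2 higher periportally. Sult5a1 showed the clearest position difference of the 36 genes. In the periportal bin it read 198, 117, 246 and 134 CPM, and in the pericentral bin 25.1, 14.4, 36.7 and 19.5 CPM. The highest pericentral value lay below the lowest periportal one. The difference was -2.88 (SE 0.08, adjusted p = 2.38e-16), a 7.36-fold lower pericentral level. Over 5 bins it fell at every step in every library, from 221 to 20.1 CPM in fasted 1, from 129 to 12.9 in fasted 2, from 263 to 22.4 in fed 1 and from 152 to 16.7 in fed 2. Sult5a1 (ENSMUSG00000000739) lies on chromosome 8, 123140192 to 123158315, and its call held in all 14 alternative settings run for it.

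Sult1a1, the main phenol sulfotransferase, read 228, 106, 91.6 and 29.1 CPM periportally and 179, 101, 56.6 and 12.3 CPM pericentrally. It was lower pericentrally in all 4 libraries, least in fasted 2, by -0.38 (SE 0.10, adjusted p = 0.0226). The call was lost without fasted 1 or fed 1. Sult2a8, which sulfates bile acids, went the other way, at 929, 436, 531 and 1135 CPM periportally and 2000.2, 1166, 1439.6 and 1701 CPM pericentrally. All 4 libraries were higher pericentrally, by 1.14 (SE 0.18, adjusted p = 0.018), a 2.21-fold higher level. Without fed 1 the size was 1.03 but the adjusted p was 0.104, and with no low-count filter the size was 1.16 and the adjusted p 0.0804.

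The other SULT genes called lie next to the UGT2 run on chromosome 5, Sult1b1 from 87513339 and Sult1d1 from 87554645, and both were higher in the pericentral bin. Sult1d1, which sulfates catecholamine-like phenols, read 296, 70.5, 139 and 7.27 CPM periportally and 421, 125, 183 and 7.79 CPM pericentrally. The difference was 0.57 (SE 0.07, adjusted p = 6.73e-06), with 4 of 4 libraries higher and the smallest step in fed 2. Sult1b1, which sulfates thyroid hormones, read 17.6, 11.03, 8.09 and 10.2 CPM against 24.9, 15.6, 14.5 and 9.09 CPM. It was higher pericentrally in all libraries but fed 2, by 0.53 (SE 0.16, adjusted p = 0.0191). Leaving out fasted 1, fasted 2 or fed 1 each ended that call, as did DESeq2 (adjusted p = 0.174) and thinning nuclei to 1500 UMIs. Sult1c2 was not tested for position, having too few counts.

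**Figure D2:**
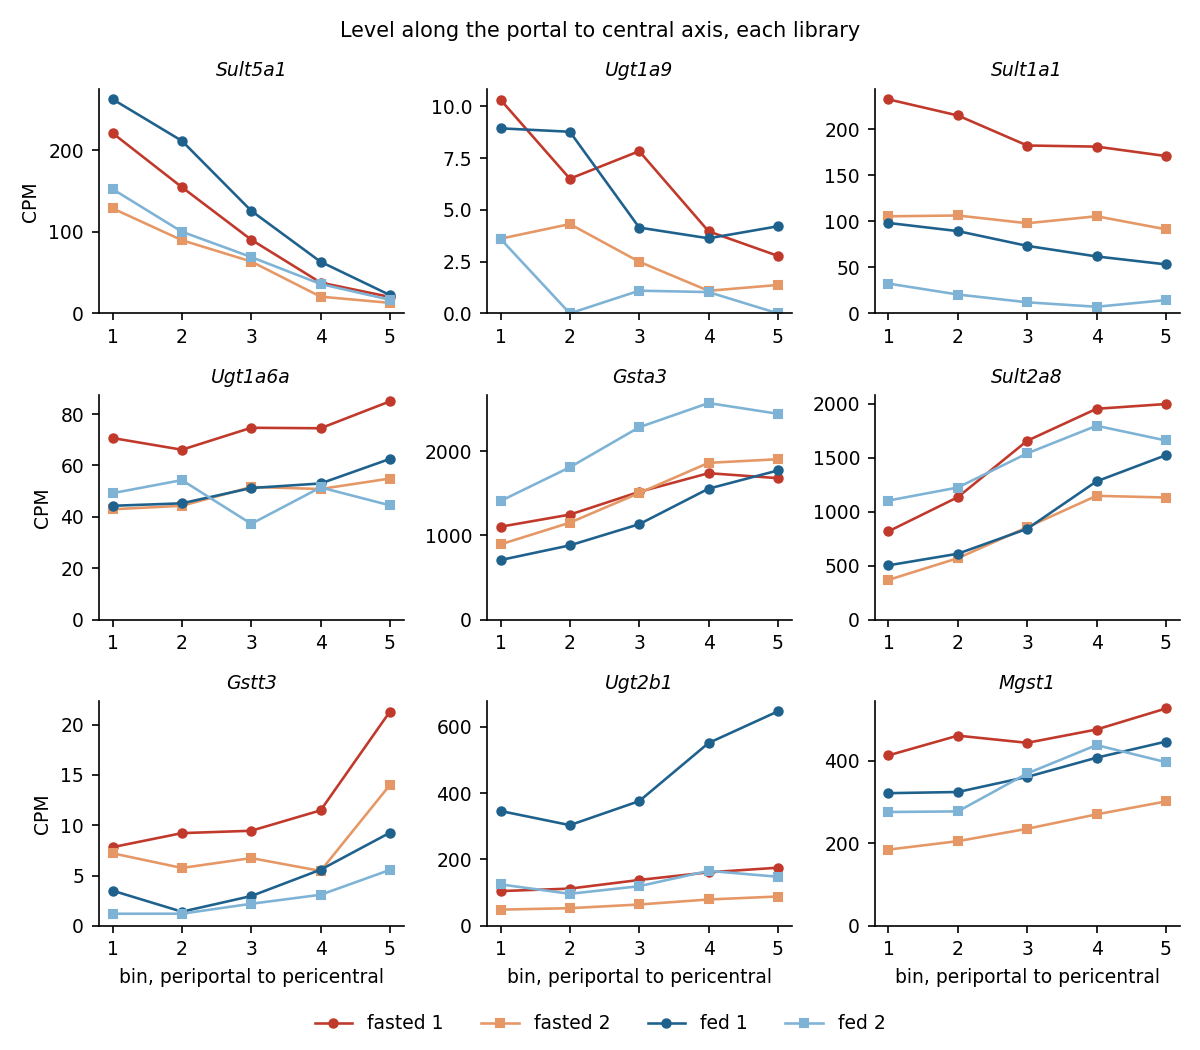
CPM of 9 members (y axes, from 0) over 5 equal score bins, 1 periportal to 5 pericentral (x axis), 1 line per library. Sult5a1 falls at every step in each library, and Gsta3 and Sult2a8 climb over at least 3 of the 4 steps. Lines of the libraries cross in some panels. For Gsta3, fed 1 rises from 708 to 1772 CPM and fasted 1 from 1103 to 1681 CPM between bins 1 and 5.

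Summed over each family, the pericentral to periportal ratio of CPM was 1.20, 1.16, 1.36 and 1.24 for the UGT members. It was 1.32, 1.59, 1.79 and 1.54 for the GST members and 1.59, 1.92, 1.70 and 1.33 for the SULT members. All 12 ratios were above 1. The SULT sums were carried by Sult2a8, since Sult5a1 and Sult1a1 lay the other way. The GST sums rested largely on Gsta3. Periportally it gave 1132, 979, 779 and 1539 of 2201, 1795, 1403 and 2256 CPM. In the pericentral bin it gave 1719, 1910, 1705 and 2517 of 2915, 2854, 2506 and 3473 CPM.

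Fasting and feeding were compared to ask which members changed with feeding state. No member passed the edgeR test between fasted and fed hepatocytes. Of 35 members tested 0 were called, where the background was 0.00715% of genes. DESeq2 called 1 member, Ugt2b37, against 1.09% of genes in either direction and 0.607% higher in fed. At an unadjusted p below 0.05 in edgeR there were 8 members, against 6.84% of genes. The median log2 fold change, fasted minus fed, was 0.00 over the members and -0.01 over all genes. In 12 members both fasted libraries were above both fed ones (20.7% of all genes), in 4 both fed libraries were above both fasted ones (15.6%), and 19 overlapped.

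**Figure D3:**
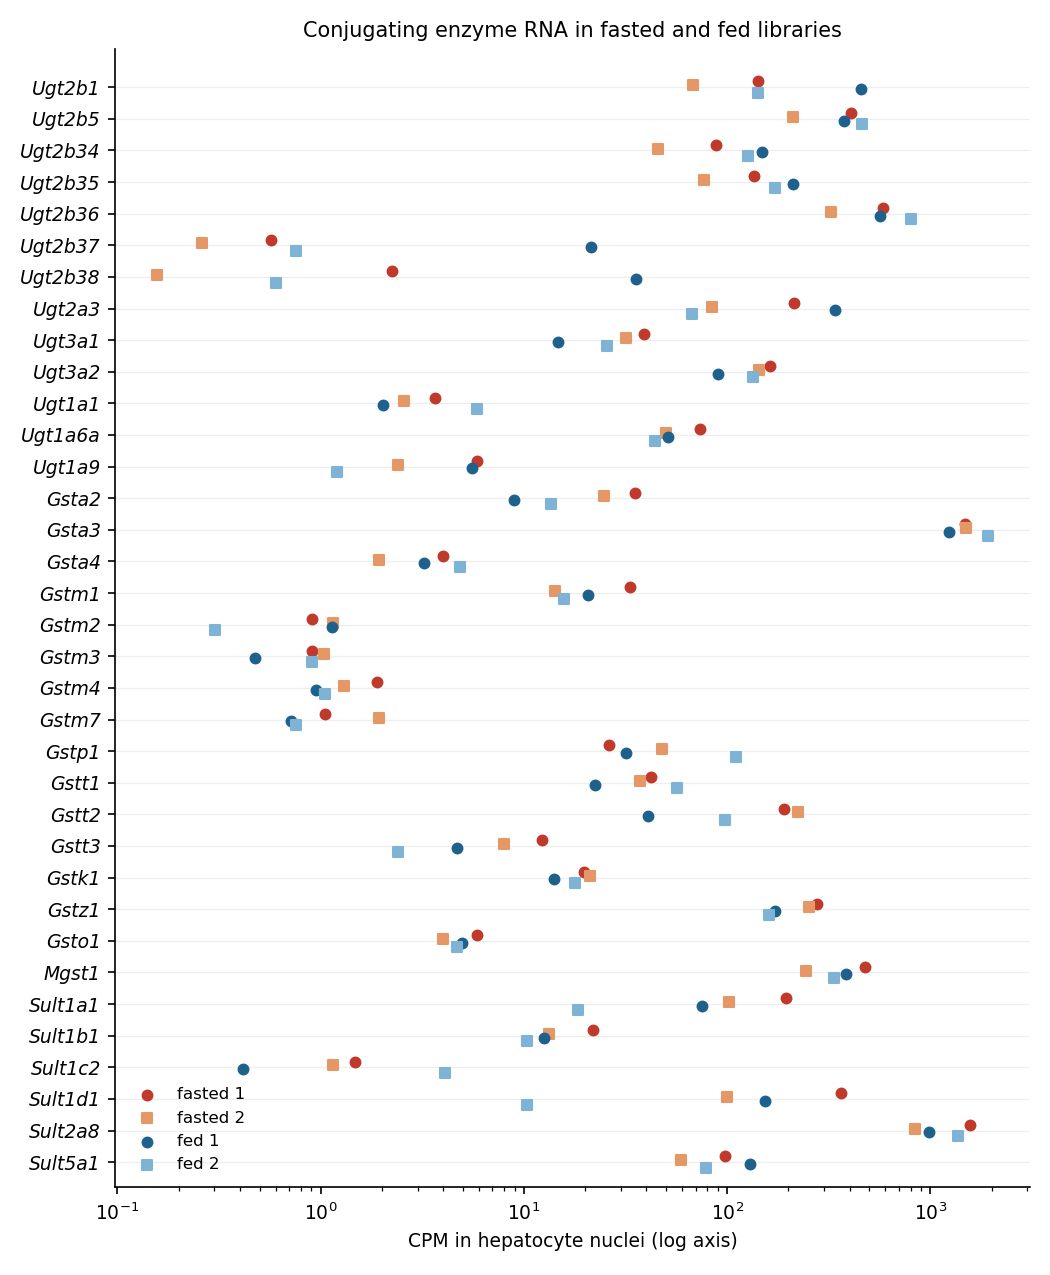
CPM in hepatocyte nuclei of the 35 members tested between fasted and fed (log x axis), with 1 point per library, fasted in red and orange and fed in blue. Most members overlap between the groups; Ugt2b37 and Ugt2b38 have 1 high library, fed 1, at 21.3 and 35.6 CPM.

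The fitted log2 fold changes of all 8 UGT2 members were below 0, that is, toward higher values in fed libraries, with a median of -0.99. None passed in edgeR, and the sign turned without fed 1 for Ugt2b38 and Ugt2a3 and without fasted 2 for Ugt2a3. Ugt2b1 read 142 and 68.2 CPM after fasting against 454 and 143 CPM in fed livers, the order kept for the members that follow. The groups were barely separated, with fasted 1 and fed 2 almost equal, and the difference was -1.51 (SE 0.60, adjusted p = 0.72 in edgeR). Without fed 2 it was called at -2.09 (adjusted p = 0.00267). Ugt2b34 read 88.5 and 45.5 against 148 and 127 CPM, and Ugt2b35 135 and 77.0 against 211 and 172 CPM, both without overlap. Their differences were -1.08 (SE 0.38) and -0.89 (SE 0.36).

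Ugt2b37 read 0.571 and 0.261 against 21.3 and 0.753 CPM. The high value was that of fed 1 alone, from 358 counts against 12, 5 and 5. The difference was -4.70 (SE 1.43, adjusted p = 0.628 in edgeR and 0.00251 in DESeq2), and it was called by edgeR without fed 2. Without fed 1 its fitted difference was -0.95. Ugt2b38 showed the same arrangement, at 2.24 and 0.156 against 35.6 and 0.602 CPM. Fed 1 is the library with the acute-phase cluster, and the part of that cluster in these values was not tested. Ugt2b36 (585 and 325 against 567 and 804 CPM) and Ugt2b5 (405 and 211 against 377 and 461 CPM) overlapped between the groups.

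Several GST and SULT members leaned toward fasted libraries without passing. Gstt2 read 189.5 and 223 against 40.6 and 97.6 CPM, without overlap, a difference of 1.52 (SE 0.50, adjusted p = 0.635). It was called without fed 2, at 2.38 (adjusted p = 0.00134). Gsta2 read 35.1 and 24.8 against 8.98 and 13.6 CPM, also without overlap, with a difference of 1.37 (SE 0.42, adjusted p = 0.63). Gstt3 read 12.3 and 7.98 against 4.70 and 2.41 CPM, a difference of 1.47 (SE 0.53). Sult1a1 read 194 and 102 against 75.2 and 18.4 CPM. The groups did not overlap, the difference was 1.65 (SE 0.65, adjusted p = 0.722), and without fed 1 it was called at 2.90 (adjusted p = 0.0115).

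The other members were close between groups or spread within them. Gsta3 read 1473 and 1491 against 1237 and 1925 CPM, a difference of -0.14 (SE 0.37). Sult2a8 read 1560.0 and 841 against 984 and 1366 CPM, a difference of -0.03 (SE 0.41). Mgst1 read 478 and 243 against 385 and 335 CPM. In each of these the groups overlapped. Gstp1 read 26.2 and 47.6 against 31.8 and 111 CPM, and Gstp1 was among the 10 leading genes of cluster 1, almost all of it from fed 2. Its near copy Gstp2, which was among the leading genes of the acute-phase cluster of fed 1, read 27.3 and 63.8 against 237 and 25.6 CPM. Sult1d1 spread widely within both groups, at 362 and 99.9 against 154 and 10.4 CPM. Sult5a1 overlapped, at 97.2 and 59.5 against 130.1 and 78.8 CPM.

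Smaller subfamilies gave these values. Ugt3a1 read 38.8 and 31.7 against 14.6 and 25.8 CPM, and Ugt3a2 163 and 144 against 89.7 and 134 CPM, both without overlap and not called (adjusted p = 0.812 and 0.918). Ugt1a1 read 3.66 and 2.56 against 2.02 and 5.87 CPM and Ugt1a6a 73.4 and 49.9 against 51.3 and 44.3 CPM, with overlap. Gstm1 read 33.2 and 14.2 against 20.8 and 15.8 CPM, and Gstm7 1.05 and 1.93 against 0.714 and 0.753 CPM. Gstz1 read 276 and 251 against 172 and 161 CPM, a difference of 0.63 (SE 0.29, adjusted p = 0.75), the fasted libraries above the fed ones. The remaining 10 members tested (Ugt1a9, Gsta4, Gstm2, Gstm3, Gstm4, Gstt1, Gstk1, Gsto1, Sult1b1 and Sult1c2) had differences between -0.78 and 0.65, and Gstm6 had too few counts for the test.

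Libraries also differed by replicate number. In 17 of 35 members replicate 1 exceeded replicate 2 in both groups, against 41.8% of all genes, and in 6 the reverse held, against 29.1%. Ugt2a3, with 214 and 84.6 against 340.4 and 67.0 CPM, and Sult1d1 above are examples. The labels state no batch for these numbers.

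Whether the position of a member depended on feeding was tested with an interaction of bin and feeding state, as the fasted minus the fed position difference. Of 34 members tested 0 passed in edgeR, where the background was 0.343% of genes, and 0 in DESeq2, where it was 0.0735%. At an unadjusted p below 0.05 edgeR gave 6 members and 7.14% of genes. The smallest adjusted p was that of Sult1a1, with a position difference of -0.23 in fasted and -0.74 in fed libraries, an interaction of 0.51 (adjusted p = 0.229). Ugt2a3 differed by -0.21 in fasted and 0.18 in fed, an interaction of -0.39 (adjusted p = 0.261). Sult5a1 differed by -3.00 in fasted and -2.73 in fed, an interaction of -0.27 (SE 0.16, adjusted p = 0.803). Gsta3 stood at 0.78 and 0.94 in the same order, an interaction of -0.15 (adjusted p = 0.93).

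Single libraries decided some of these values. Without fed 1 Sult2a8 was called (0.67), and without fed 2 Ugt2b38 (2.27), Ugt2a3 (-0.48) and Gsta3 (-0.40) were.

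**Figure D4:**
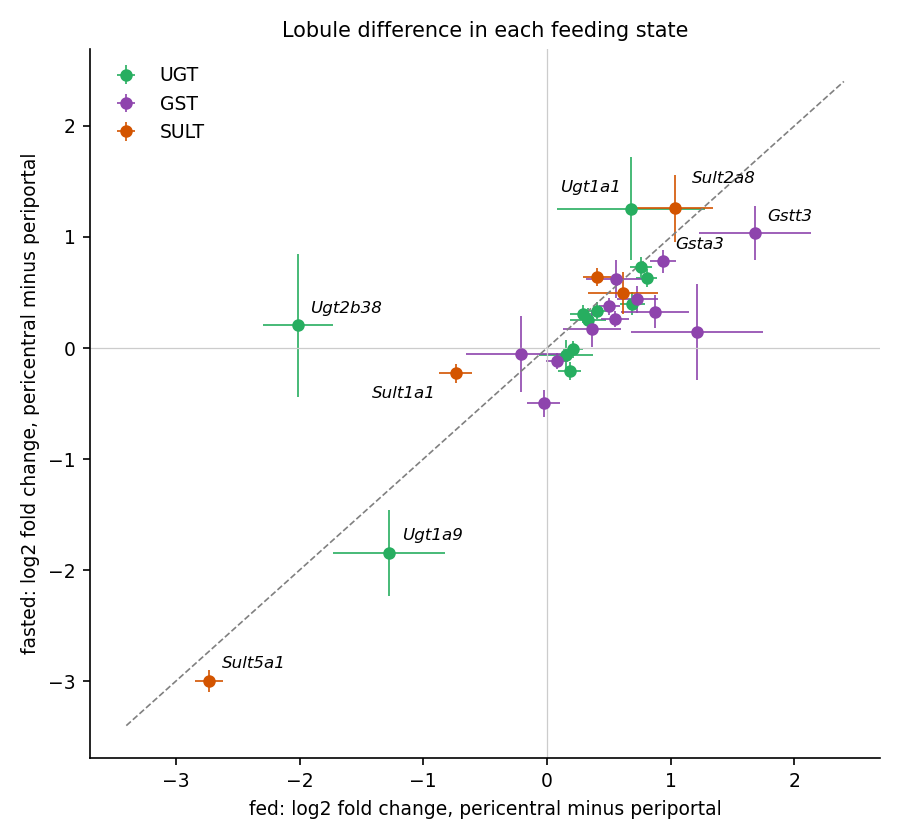
Position difference of the 29 members, log2 fold change of the pericentral minus the periportal bin, in fed (x axis) and fasted libraries (y axis), with bars of 1 SE, colours for the families and a dashed line of equality. Sult5a1 and Ugt1a9 lie below 0 in both states, most members above 0 in both, and Ugt2b38 is far from the line, at -2.01 in fed and 0.20 in fasted.

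Genes that supply and remove conjugates were read from lists chosen with earlier results of these data known. Over all genes tested for position, 8.45% were higher pericentrally and 8.67% periportally. Of 9 genes for glucuronidation supply and export, 5 were higher pericentrally and 1 periportally. The export pumps Abcc3 (0.72), Abcc2 (0.50) and Abcc4 (3.34, at 2.68 to 6.94 CPM) and Ugdh (0.36), which makes UDP-glucuronic acid, were among the 5, and Gusb, which cleaves glucuronides, was the 1 (-0.53). The median of the list was 0.36. Of 10 genes of glutathione supply, 2 were higher pericentrally and 3 periportally, the latter Gss (-0.40), Cbs (-0.60) and Slc25a39 (-0.54). The former were Slc1a4 and Gsr, and the median of that list was -0.11. No gene of 7 for sulfate supply passed in edgeR, with 4 at an unadjusted p below 0.05, against 26.9% of all genes. DESeq2 called Papss2 (adjusted p = 0.00559).

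Of 17 NRF2 targets tested, 5 were higher pericentrally and 0 periportally, with a list median of 0.21. The shares over all genes, for this list and the next, were 8.45% and 8.67%. Among 17 regulators 4 were higher pericentrally and 2 periportally, and the median of the list was -0.0049. Ahr, the receptor that induces Ugt1a and Gsta genes, stood at 1.92 and Nfe2l2, which encodes NRF2, at 0.30. Ppargc1a, Por, Rxra and Cux2 were called as well, and the 2 periportal calls were among them.

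Between fasted and fed, no gene of these 6 lists passed in edgeR. At an unadjusted p below 0.05 in edgeR (6.84% of all genes) there were 0 of 9 genes for glucuronidation. There were 1 of 11 for glutathione and 1 of 7 for sulfate supply. Of the other lists, 3 of 20 NRF2 targets, 4 of 17 regulators and 3 of 17 other conjugating and detoxifying enzymes were below it. DESeq2 called Papss1, Cth, Osgin1, Gnmt and Bhmt. Papss1, which makes the sulfate donor of the SULT enzymes, read 5.61 and 5.11 against 25.4 and 22.9 CPM, without overlap (-2.20, adjusted p = 0.427 in edgeR and 0.000651 in DESeq2). Nr1i3, the receptor CAR, read 727 and 467 against 218 and 225 CPM (1.39, adjusted p = 0.529). Gclc, the catalytic subunit of the first enzyme of glutathione synthesis, passed the interaction test (-0.47, adjusted p = 0.043).

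The 32 other genes of the same families added no call. In position 5 were tested and in feeding 11, with 0 passing in edgeR or DESeq2 in either. At an unadjusted p below 0.05 in edgeR there was 1 in position (26.9% of all genes) and 0 in feeding (6.84%).

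Outside hepatocytes, levels were pooled over libraries, and most of those nuclei came from fasted 1 and fed 1. Over the 23 members with at least 10 CPM in hepatocytes, the median level in the other 8 cell types was 49.7% to 74.0% of that in hepatocytes. The hepatocyte markers Alb and Apob stood at 47.7% to 77.6% and 38.9% to 68.6% in those types. The part of free hepatocyte RNA in the levels of the members was not tested.

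Some members lay above the marker shares. Gstm1 read 60.5, 25.4, 58.6 and 26.7 CPM in endothelial nuclei, against 33.2, 14.2, 20.8 and 15.8 CPM in hepatocytes, higher in all 4 libraries. This was not particular to endothelial nuclei: pooled over libraries, Gstm1 stood at 203% to 279% of the hepatocyte level in every other cell type. Gstt1 read 41.0, 68.2, 34.1 and 108 CPM in stellate nuclei, from 132 counts in all, against 42.2, 37.03, 22.2 and 56.6 CPM in hepatocytes, higher in 3 of 4 libraries. Mgst1 in endothelial nuclei was above hepatocytes in fasted 1 and fed 1 (643 and 420.3 against 478 and 385 CPM) and below them in fasted 2 and fed 2 (177 and 221 against 243 and 335 CPM).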

How the data were processed

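The members and the gene lists were chosen with earlier results of these data known. The submitters' processing notes name Cell Ranger 6.0 and the mm10 genome. The deposited matrices hold whole-number UMI counts per gene and nucleus. Between 13.2% and 17.0% of stored entries were 0, unlike in an ordinary sparse matrix. The sources used here do not give the step that left them, and counting each as 1 was an alternative.

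A nucleus was kept with 500 genes or more and no more than 5% of mitochondrial UMIs. Scrublet's automatic threshold marked 1781, 0, 1 and 2 doublets, so each library instead lost its barcodes of highest score, 0.8% for every 1000 barcodes (1108, 450, 758 and 233). Clusters came from scanpy 1.11.5 with leidenalg 0.10.2 (2000 variable genes, 30 components, 15 neighbours, resolution 1), without integration, and took names from marker lists.

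For position, z-scores of 8 pericentral landmarks were averaged and the average of 9 periportal ones subtracted, those of 12 and 11 detected in at least 2% of hepatocyte nuclei of every library, with each nucleus thinned to 1500 UMIs. This scored 4815, 4202, 4337 and 1533 nuclei, and shallower ones got no score. Scores from odd and even landmarks correlated across nuclei at 0.626, 0.667, 0.586 and 0.591.

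Counts were summed per library, and per bin, and compared with quasi-likelihood F tests of edgeR 4.0.16 (robust fit, TMM scaling, filterByExpr) in R 4.3.3, adjusted by Benjamini-Hochberg over all genes. SE was derived from the F statistic and the log2 fold change. DESeq2 1.42.0 was the other tool. CPM and log2 values were computed from the deposited counts. Values are given in each library for members that passed a test or had the highest level or largest change of their subfamily, and the others by ranges and counts. Coordinates are from GENCODE M21 (GRCm38, the same build as mm10). The position result of the list of other conjugating and detoxifying enzymes is not reported here.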

Additional observations from a re-analysis of the deposited data

How the results depend on the processing

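Each comparison was repeated with other scaling, filters, bins, landmarks and tools, and without each library. The number of members called by position ranged from 14 to 21 when 1 library was left out. It stood between 16 and 22 under the other settings, except that it was 1 with no replicate block tying the bins of a library. Calls over all genes were 1356 of 11091 to 1973 of 11662, 1380 of 11391 to 2254 of 12228, and 95 of 11391, in that order. Between fasted and fed, 4 members were called with no low-count filter (Ugt2b1, Ugt2b37, Gstt2 and Sult1a1), where 272 of 24856 genes were. DESeq2 called 1 member and 153 of 13995 genes. Leaving out 1 library left 1 library in a group, so no count is given for it. For position by feeding, 0 members were called in every setting that kept all libraries. The replicate block on the fasted and fed comparison gave 0 members and 47 genes. The labels state no pairing, and same-numbered libraries deviated together at a correlation of 0.55, from 2 pairs in which both values are tied. The block was used nowhere else.

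With no low-count filter the fasted minus fed log2 fold change turned sign for Mgst1 (0.0050) and Sult2a8 (0.026) and for Gstt1, and DESeq2 turned the interaction of Ugt2b38 (-0.19). Leaving out 1 library turned fasted minus fed values that were near 0 or uneven between libraries, with ranges of -0.36 to 0.80 for Gstm1, -0.57 to 0.34 for Mgst1, -0.50 to 0.33 for Sult2a8, -1.02 to 0.65 for Ugt1a1, -0.48 to 0.29 for Gsta3 and -1.68 to 0.26 for Gstp1. In the interaction the ranges were -5.51 to 2.27 for Ugt2b38, -0.40 to 0.072 for Gsta3 and -0.23 to 0.67 for Sult2a8. There, 19 of 34 members turned sign under at least 1 alternative, among them Ugt2b1, Ugt2b36, Mgst1 and Sult5a1. In all, 13 of 35 members turned sign between fasted and fed under at least 1 alternative, none of them called under any. Among these, Gstt1 ran from -0.62 to 0.86 and turned in 4 of 12 settings, and Gsto1 ran from -0.26 to 0.48 and turned in 5. The cause was not tested. None of the 20 position differences called changed sign under the settings run. With 2 libraries per group, 1 of them shallow, the feeding comparison has few degrees of freedom, and members under about 3 CPM were limited by counting.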
